A study of Homo sapiens with 8 samples.

Results

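The genes described here are 10 genes of the Hippo pathway: YAP1, WWTR1 and TEAD1, which encode its transcriptional effectors, and ANKRD1, CCN1, CCN2, AMOTL2, AJUBA, LATS2 and CRIM1, which are YAP target genes or regulators of the pathway. They were chosen by name, with earlier results of these data known. Their counts, set beside the shares of all genes, are therefore a description and no independent test. CCN1 and CCN2 were found under their older symbols CYR61 and CTGF. All 10 were found among the 58217 genes with a matched transcript, and all 10 passed the filter on low counts that left 18201 genes for testing. The members had normalized counts of 303.675 or more in every library, so none passed the filter through a single group.

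Hippo signalling is a kinase cascade in which STK3 and STK4 (MST2 and MST1) activate LATS1 and LATS2. These phosphorylate YAP and TAZ, the proteins of YAP1 and WWTR1, and so keep them out of the nucleus. Unphosphorylated YAP and TAZ enter the nucleus, bind TEAD transcription factors and switch on target genes, and the pathway is known to respond to substrate stiffness, cell spreading and adhesion. The RNA of a pathway gene does not show the phosphorylation or the location of its protein, neither of which was measured in the data described here.

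The study named the cells oligodendrocyte progenitor cells (OPCs), the cells that give rise to the myelinating cells of the central nervous system. They were derived from the established human embryonic stem cell line H9. When the study stained such cultures, only part of the cells held the OPC markers OLIG2, A2B5 and NG2. No SOX10 was overexpressed in any of the groups, and each was kept for 2 days in OPC medium on a coated plate. The control coating was Matrigel, a basement membrane extract rich in laminin, with 2 libraries (replicates 2 and 3). VN was recombinant vitronectin, and VNP2 was a designed peptide from vitronectin that holds the integrin-binding RGD motif and is fused to a mussel adhesive protein. VN and VNP2 had 3 libraries each. Polyadenylated RNA was sequenced as stranded libraries, and Salmon's estimated counts ranged from 37997896 to 39429453 per library. All libraries came from 1 cell line, and the labels do not say whether replicates were separate cultures or differentiations. The study describes 3 sequenced samples per coating, where Matrigel has 2 libraries here. It says that experiments were repeated and that the sequenced samples came from different cells on each coating. What separated the replicates of a coating is not said. The p-values therefore set differences against the spread between these libraries, which may be technical. In edgeR all 3 groups shared 1 estimate of that spread, because Matrigel has only 2 libraries.

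Before the results, the libraries were compared with their labels. VN replicate 1 stood apart from the other VN libraries, with a median chi-square per gene of 2.35 and 2.75 against them, where sampling noise alone gives 0.455 and the other replicate pairs had 0.713 to 1.19. No pair of libraries agreed within sampling noise. Of 8 OPC markers, SOX10 and GPR17 were close to absent, with 20 and 12 estimated counts summed over the 8 libraries, and neither could be tested. The summed abundance of the OPC markers, in TPM (Salmon's abundance unit, scaled for transcript length and depth), was 214.7 to 216.8 on Matrigel, 282 to 296 on VN and 310.3 to 334 on VNP2. PTPRZ1 alone held means of 108, 151 and 178 TPM of these sums. Only 78.7% of its counts in the authors' table were recovered here. Of the 6 tested OPC markers, 3 were called higher on VN and 6 on VNP2, and none lower. Among all tested genes, 5.81% were called higher on VN and 7.45% on VNP2. In RNA from whole cultures, fewer cells of a type and less RNA per cell cannot be told apart.

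To show the DNA around the start of members with TEAD-binding letters, the 250 bases before the transcription start of 3 members are printed from RefSeq (GRCh38.p14), 5′ to 3′ on the strand of the gene. ANKRD1 (chr10:90921088-90921337, minus strand) and CCN2 (chr6:131951373-131951622, minus strand) are shown as target genes that were lower on VN and VNP2, and YAP1 (chr11:102110197-102110446, plus strand) as the effector for contrast. Capitals mark GGAATG, the core letters of the TEAD motif, and TGANTCA, those of the AP-1 motif, which did not overlap.
ANKRD1: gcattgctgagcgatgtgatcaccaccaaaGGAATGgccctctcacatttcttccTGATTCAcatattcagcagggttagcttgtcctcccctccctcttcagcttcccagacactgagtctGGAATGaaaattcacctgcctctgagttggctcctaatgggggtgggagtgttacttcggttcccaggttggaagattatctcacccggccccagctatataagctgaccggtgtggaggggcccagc
CCN2: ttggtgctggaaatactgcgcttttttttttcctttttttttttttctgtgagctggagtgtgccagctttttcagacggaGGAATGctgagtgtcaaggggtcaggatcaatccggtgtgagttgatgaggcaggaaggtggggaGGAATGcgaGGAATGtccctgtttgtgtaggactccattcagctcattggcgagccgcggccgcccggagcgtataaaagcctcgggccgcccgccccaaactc
YAP1: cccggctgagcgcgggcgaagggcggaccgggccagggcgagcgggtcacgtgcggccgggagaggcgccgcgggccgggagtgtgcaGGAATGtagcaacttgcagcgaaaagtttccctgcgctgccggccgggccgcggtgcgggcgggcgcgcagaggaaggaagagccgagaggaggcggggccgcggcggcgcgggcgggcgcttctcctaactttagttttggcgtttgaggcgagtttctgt

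The ANKRD1 stretch held GGAATG at 220 to 215 and again at 128 to 123 bases before the RefSeq start, with TGATTCA between them at 195 to 189. The annotated start of the ANKRD1 transcript in GENCODE lay 189 bases upstream of that of RefSeq, inside the printed stretch. By that annotation the match at 128 to 123 lay within the transcript, TGATTCA ended on its first base, and the match at 220 to 215 lay before it. In CCN2 there were 3 matches to GGAATG, at 169 to 164, 104 to 99 and 95 to 90 bases before the start, and the letters TATAAA at 32 to 27. YAP1, whose RNA was not lower on either coating, held 1 match, at 162 to 157 bases. The RefSeq table held promoters of 7 of the 10 members, and none for CCN1, CRIM1 and TEAD1. Searched on both strands, 4 of these 7 held GGAATG (ANKRD1, CCN2, YAP1 and AMOTL2), against 11.9% of all 35116 promoters. The AMOTL2 match lay 69 to 64 bases before the RefSeq start. The leading AMOTL2 transcript in GENCODE starts 147 bases upstream of that start, so by that annotation the match lay downstream of the start. The AP-1 letters were in 1 of 7 member promoters (ANKRD1) and in 6.57% of all. TATAAA was in 1 of 7 (CCN2) and in 10.7% of all. The CArG box, the motif of serum response factor, was in none of the 7 and in 1.16% of all. With so low a share, its absence from 7 promoters tells nothing about the members. A match describes letters in this window and is not a measured binding site.

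On VN, 8 of the 10 members were lower than on Matrigel and none was higher, with ANKRD1, CCN1, CCN2 and CRIM1 lower by 2-fold or more. Of all genes tested, 15.2% were called in this comparison, 9.41% were called lower, 5.81% were called higher and 1.25% were called lower by at least 2-fold. On VNP2, 8 members were lower and YAP1 was higher, against 16.6% of all genes called, 9.13% called lower and 7.45% called higher. ANKRD1, CCN1, CRIM1 and AJUBA were lower by 2-fold or more, as were 1.52% of all genes. The median log2 fold change of the 10 members was −0.66 on VN and −0.85 on VNP2, beside 0.0083 and 0.0030 over all tested genes. Both comparisons share the same 2 Matrigel libraries and are given side by side for that reason. In normalized counts, the VN libraries of 8 members lay below both Matrigel libraries without overlap, which held for 22.7% of all genes, and none lay wholly above, which held for 21.7%. In VNP2, 9 lay wholly below (25.0% of all genes) and 1 wholly above (23.1%). The counts of called members were 8 and 9 with and without VN replicate 1.

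**Figure D1:**
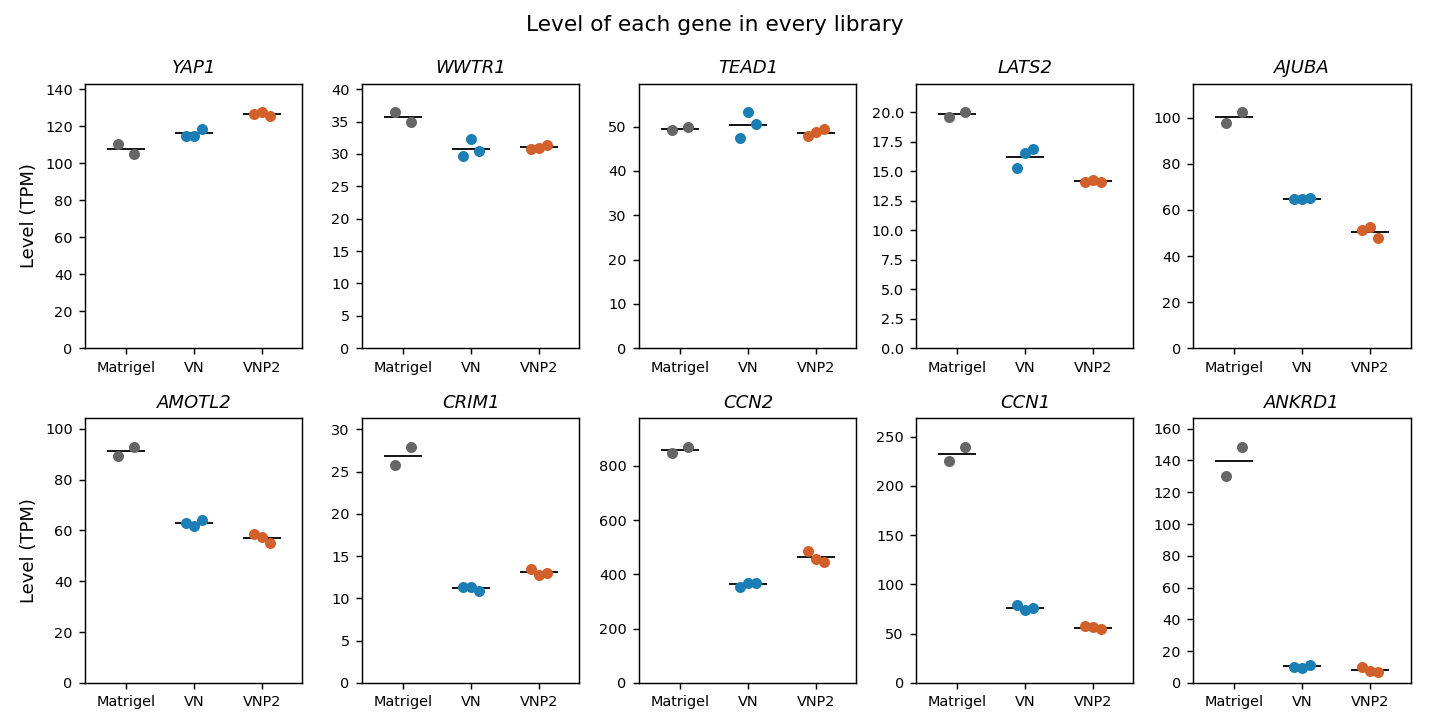
Abundance of the 10 members in each library (TPM, 1 panel per gene, each axis starting at 0), with libraries of Matrigel, VN and VNP2 as points and group means as lines. ANKRD1 lies at 131 and 149 TPM on Matrigel and at 6.94 to 11.2 TPM in the 6 other libraries, whereas TEAD1 stays between 47.4 and 53.3 TPM in all 8.

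Among the effectors, YAP1 (ENSG00000137693, chr11:102110461-102233423, plus strand) encodes YAP, the co-activator that carries the signal to the nucleus. Its abundance was 110.4 and 105 TPM on Matrigel, 115, 115 and 119 TPM on VN, against 127, 128 and 126 TPM on VNP2. All VNP2 libraries lay above those of both other groups. In normalized counts, which adjust for library size and transcript length and on which all fold changes rest, the log2 difference of VNP2 from Matrigel was 0.17 (SE 0.0358, edgeR adjusted p = 0.00889) and that of VNP2 from VN was 0.14 (SE 0.0319, edgeR adjusted p = 0.0334). VN and Matrigel overlapped in normalized counts (9038 and 9572 on Matrigel, 9336 to 9629 on VN), and the log2 difference was 0.03 (SE 0.0358, edgeR adjusted p = 0.617). The call against Matrigel was lost without Matrigel replicate 3 (log2 difference 0.13, edgeR adjusted p = 0.121), and that against VN was lost in 6 of 16 alternative fits.

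WWTR1 (ENSG00000018408, chr3:149517235-149736714, minus strand) encodes TAZ, the paralogue of YAP. Its abundance was 36.5 and 34.9 TPM on Matrigel, 29.7, 32.2 and 30.5 TPM on VN, against 30.7, 30.9 and 31.4 TPM on VNP2. Every VN and VNP2 library was thus below both Matrigel libraries, while VN and VNP2 overlapped. The log2 fold change in normalized counts was −0.29 on VN (SE 0.0452, edgeR adjusted p = 0.00187) and −0.27 on VNP2 (SE 0.0452, edgeR adjusted p = 0.0023). YAP1 and WWTR1 thus differed from Matrigel in opposite directions on VNP2, and the ratio of their TPM within a library was 3.03 and 2.999 on Matrigel, 3.86, 3.56 and 3.89 on VN, against 4.12, 4.14 and 3.99 on VNP2. The ratio did not overlap between any of the groups. The exact two-sided permutation test gave p = 0.2 for each coating against Matrigel and p = 0.1 for VNP2 against VN, the smallest values that 3 against 2 and 3 against 3 libraries allow.

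TEAD1 (ENSG00000187079, chr11:12674591-12944483, plus strand) encodes a DNA-binding partner of YAP and TAZ. It was at 49.2 and 49.9 TPM on Matrigel, 47.4, 53.3 and 50.5 TPM on VN, against 47.9, 48.7 and 49.4 TPM on VNP2. The groups overlapped in TPM, although in normalized counts the VNP2 libraries (7322 to 7518) lay below those of Matrigel (7888 and 7963). TEAD1 was the member with the narrowest range of group means, 0.094 on the log2 scale of normalized counts. No comparison called it, with log2 fold changes of −0.06 on VN (SE 0.0415, edgeR adjusted p = 0.414) and −0.09 on VNP2 (edgeR adjusted p = 0.163).

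Of the target genes, ANKRD1 (ENSG00000148677, chr10:90912096-90921276, minus strand), which encodes an ankyrin repeat protein first known from cardiac muscle, had the widest range. Its normalized counts were 6014 and 6816 on Matrigel, 448, 414 and 485 on VN, against 428, 339.5 and 304 on VNP2. Both Matrigel libraries stood an order of magnitude above all others. The log2 fold change was −3.84 on VN (SE 0.11, edgeR adjusted p = 4.36e-08), a level 14.3-fold lower, and −4.17 on VNP2 (SE 0.112, edgeR adjusted p = 1.19e-08), 18.0-fold lower. Sorted by log2 fold change, ANKRD1 took place 10 from the lowest of the 18201 tested genes on VN and place 14 on VNP2. VN and VNP2 overlapped (log2 difference −0.33, SE 0.118, edgeR adjusted p = 0.155), but DESeq2 called this difference (adjusted p = 0.0363), as did edgeR with no filter (adjusted p = 0.0339) and without VNP2 replicate 1 (adjusted p = 0.0335).

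CCN1 (ENSG00000142871, chr1:85580761-85583962, plus strand) and CCN2 (ENSG00000118523, chr6:131948176-131951373, minus strand) encode secreted matricellular proteins that bind integrins. The normalized counts of CCN1 were 10048 and 10654 on Matrigel, 3378, 3092 and 3179 on VN, against 2443, 2411 and 2308 on VNP2. The 3 groups did not overlap, with VNP2 the lowest. CCN1 fell 3.22-fold on VN (log2 fold change −1.69, SE 0.0472, edgeR adjusted p = 4.36e-08) and 4.34-fold on VNP2 (log2 fold change −2.12, SE 0.0478, edgeR adjusted p = 7.89e-09). It had the smallest p of all tested genes in both comparisons.

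CCN2 had normalized counts of 36554 and 37434 on Matrigel, 14616, 14858 and 14944 on VN, against 20067, 18807 and 18230 on VNP2. Here too the groups did not overlap, but VN was the lowest and VNP2 lay between. The log2 fold change was −1.32 on VN (SE 0.04, edgeR adjusted p = 4.78e-08), 2.499-fold lower, and −0.96 on VNP2 (SE 0.0399, edgeR adjusted p = 1.76e-07), 1.94-fold lower. Set against VN, VNP2 was 1.29-fold higher for CCN2 (log2 difference 0.36, SE 0.0365, edgeR adjusted p = 0.000339) and 1.35-fold lower for CCN1 (log2 difference −0.43, SE 0.0447, edgeR adjusted p = 0.000426). These closely related genes thus differed between VN and VNP2 in opposite directions, in all of the 16 alternative fits. The ratio of CCN2 to CCN1 in TPM within a library was 3.76 and 3.63 on Matrigel, 4.47, 4.97 and 4.86 on VN, against 8.49, 8.07 and 8.16 on VNP2. The ratio of CCN2 to ANKRD1 was 6.48 and 5.86 on Matrigel, 34.8, 38.3 and 32.9 on VN, against 50.1, 59.1 and 64.0 on VNP2. Neither ratio overlapped between groups, and the exact two-sided permutation test again gave p = 0.2 against Matrigel and p = 0.1 for VNP2 against VN.

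**Figure D2:**
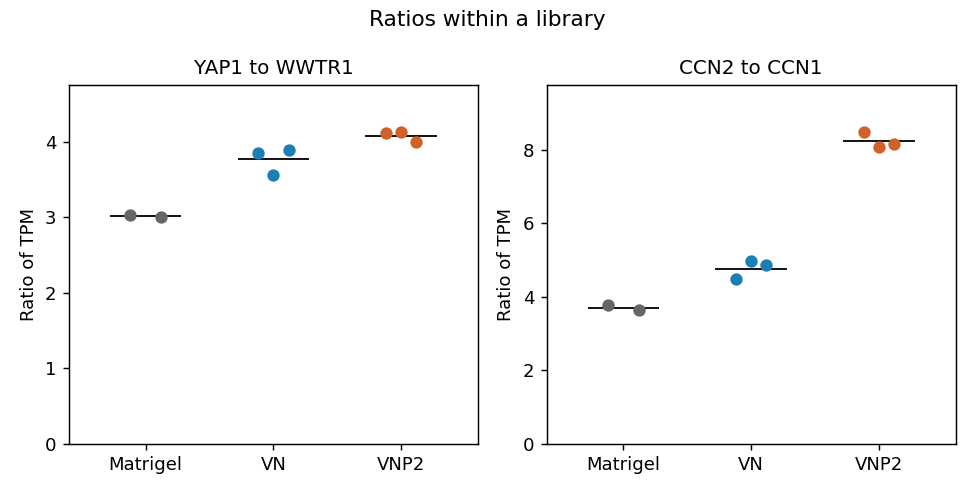
Ratios of TPM within each library for YAP1 to WWTR1 (left) and CCN2 to CCN1 (right), with 1 point per library and group means as lines. CCN2 to CCN1 is 3.63 and 3.76 on Matrigel, 4.47 to 4.97 on VN and 8.07 to 8.49 on VNP2.

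CRIM1 (ENSG00000150938, chr2:36355926-36551135, plus strand) encodes a transmembrane protein that binds growth factors of the BMP family. Its normalized counts were 2781 and 2997 on Matrigel, 1179.7, 1140.01 and 1097 on VN, against 1389.7, 1315 and 1330.1 on VNP2. As for CCN2, VN was the lowest and the groups did not overlap. CRIM1 had a log2 fold change of −1.34 on VN (SE 0.0544, edgeR adjusted p = 2.11e-07) and of −1.10 on VNP2 (SE 0.0541, edgeR adjusted p = 4.49e-07), and was higher on VNP2 than on VN by 0.24 (SE 0.0511, edgeR adjusted p = 0.023). The last call was lost in 5 of 16 alternative fits. CRIM1 overlaps FEZ2 on the opposite strand, whose counts were 122% of its own, and whether the quantification used the strand of the reads is not given in the sources used here.

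AJUBA (ENSG00000129474, chr14:22971174-22982642, minus strand) encodes a LIM protein that inhibits LATS kinases. It was at 6632 and 6914 normalized counts on Matrigel, 4216, 4101 and 4130.2 on VN, against 3303, 3406 and 3074 on VNP2. The groups did not overlap, and VNP2 was the lowest. The log2 fold change was −0.71 on VN (SE 0.0462, edgeR adjusted p = 5.05e-06), −1.05 on VNP2 (SE 0.0463, edgeR adjusted p = 2.17e-07) and −0.35 for VNP2 against VN (SE 0.0426, edgeR adjusted p = 0.00098). AMOTL2 (ENSG00000114019, chr3:134355874-134375479, minus strand) encodes an angiomotin family protein that binds YAP at cell junctions. Its normalized counts were 8928 and 9251 on Matrigel, 6039, 5791 and 5991 on VN, against 5602, 5484 and 5243 on VNP2. No group overlapped another. The log2 fold change was −0.61 on VN (SE 0.0398, edgeR adjusted p = 4.83e-06) and −0.74 on VNP2 (edgeR adjusted p = 8.3e-07), while VNP2 and VN differed by −0.13 (SE 0.0363, edgeR adjusted p = 0.0804), which DESeq2 called (adjusted p = 0.0363).

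LATS2 (ENSG00000150457, chr13:20973032-21061547, minus strand) encodes a kinase that inhibits YAP and is itself a YAP target. Its normalized counts were 2219 and 2252 on Matrigel, 1658, 1748 and 1785 on VN, against 1523, 1538 and 1518 on VNP2. Each VN and VNP2 library was below both Matrigel libraries. LATS2 had a log2 fold change of −0.37 on VN (SE 0.0475, edgeR adjusted p = 0.000562) and of −0.55 on VNP2 (edgeR adjusted p = 2.47e-05). The difference of −0.18 between VNP2 and VN (SE 0.0435, edgeR adjusted p = 0.0399) was lost in 9 of 16 alternative fits.

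Between VNP2 and VN, 6 of the 10 members were called, beside 5.18% of all tested genes. YAP1, CCN2 and CRIM1 were higher on VNP2 and CCN1, AJUBA and LATS2 were lower, where 3.07% of all genes were called higher and 2.1% lower. Without overlap, 3 members were higher (12.2% of all genes) and 4 were lower (11.2%). The median over the members was −0.083 on the log2 scale and that over all genes was −0.0026. This count was 6 without VN replicate 1, but 3 without VN replicate 2, VN replicate 3 or VNP2 replicate 3, and CCN1, CCN2 and AJUBA were called in every alternative fit.

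**Figure D3:**
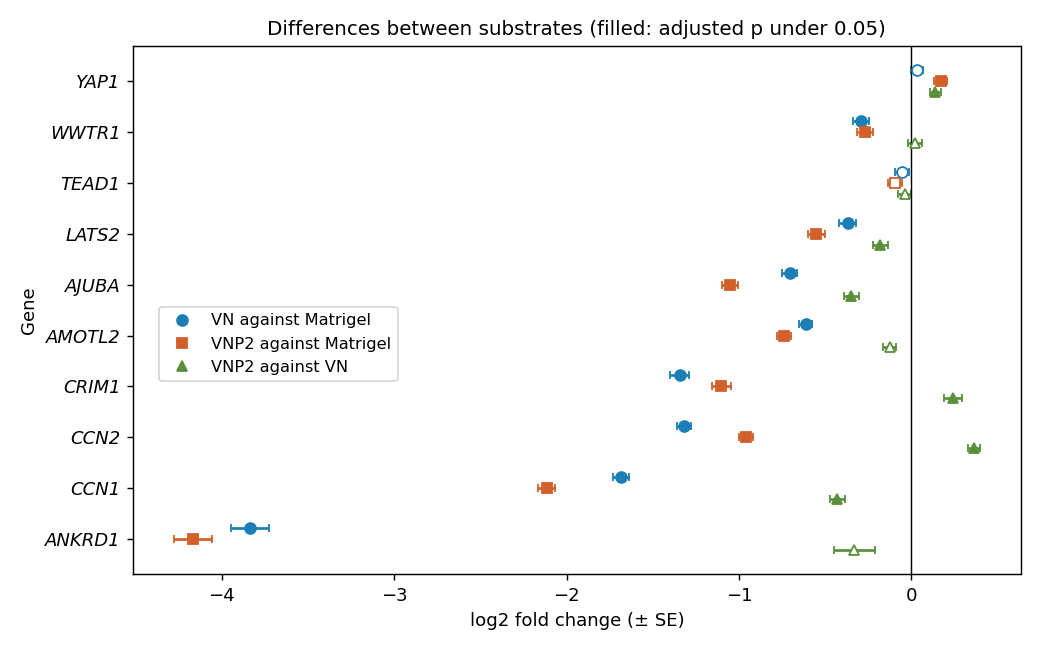
Log2 fold change of the 10 members in normalized counts for VN against Matrigel, VNP2 against Matrigel and VNP2 against VN, with bars of 1 SE and filled symbols for differences called by edgeR. ANKRD1 is at −3.84 and −4.17 against Matrigel, and CCN1 and CCN2 lie on opposite sides of 0 for VNP2 against VN.

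Per length, the order of the members also differed between coatings. In TPM on Matrigel, CCN2 was the highest (846 and 871 TPM), followed by CCN1 (225 and 239.6 TPM), ANKRD1, YAP1, AJUBA, AMOTL2, TEAD1, WWTR1, CRIM1 and LATS2, and no neighbours in this order overlapped. On VN, CCN2 was still the highest (352 to 369.7 TPM), but YAP1 came next and ANKRD1 was the last (9.59 to 11.2 TPM), overlapping CRIM1 (10.9 to 11.4 TPM). On VNP2, CCN2 (444 to 487 TPM) and YAP1 again led and ANKRD1 was the last. AMOTL2 (55.2 to 58.7 TPM) overlapped CCN1 (54.4 to 57.3 TPM) there, and AJUBA (47.8 to 52.8 TPM) overlapped TEAD1 (47.9 to 49.4 TPM). The members' summed abundance was 1630.02 to 1692 TPM on Matrigel, 787 to 814 TPM on VN and 842 to 897 TPM on VNP2.

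Most members were represented by few transcripts. ANKRD1 and CCN2 had 1 annotated transcript each, and a single transcript held 98.2% of the TPM of CCN1, 99.2% of that of LATS2 and 95.2% of that of CRIM1. YAP1 had 11 annotated transcripts, 4 of them above 5% of its TPM, and the share of its leading transcript (YAP1-209) was 40.7% for Matrigel, 38.2% for VN and 41.6% for VNP2. The libraries of the groups overlapped. For AJUBA, the share of AJUBA-201 was 77.3% ± 0.39 (SD, n = 2) on Matrigel, 80.9% ± 0.737 (SD, n = 3) on VN and 82.5% ± 0.854 (SD, n = 3) on VNP2, without overlap between groups. As a share of estimated counts in place of TPM, AJUBA-201 held 91.9%, 93.5% and 94.5%, so the level of the share depended on the measure by more than the coatings differed. These shares are Salmon's estimates, and no test was run on them.

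The other genes of the pathway were read from lists. Their counts, and those of the marker lists below, stand beside the shares of all tested genes. On VN, 9.41% of all genes were called lower and 5.81% higher, and on VNP2 9.13% and 7.45%. Between VNP2 and VN these shares were 2.1% and 3.07%. Of 24 Hippo kinases and regulators, 6 were lower and 1 was higher on VN, and 7 were lower and none was higher on VNP2. The median log2 fold change of the list was −0.0067 on VN and −0.023 on VNP2. The largest falls on VN were those of WTIP, a LIM protein related to AJUBA (log2 fold change −0.66), FRMD6 (−0.59), WWC1, known as KIBRA (−0.55), and WWC2 (−0.55), and on VNP2 the same 4 genes were at −0.60, −0.40, −0.52 and −0.74. SLMAP was the 1 gene called higher on VN (log2 fold change 0.48), but only 45.7% of its counts in the authors' table were recovered here. In that table its log2 difference was 0.04 (SE 0.0705, limma adjusted p = 0.733), and no gene of the list was called higher on VN there. Between VNP2 and VN, 2 of the 24 genes were called, the angiomotin genes AMOTL1 (−0.20) and AMOT (−0.16).

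Of 7 TEAD and VGLL genes, which encode YAP's DNA-binding partners and their other cofactors, 6 were tested. TEAD3, TEAD4 and VGLL3 were lower and TEAD2 was higher on both coatings, and none was called between VNP2 and VN. The median log2 fold change of the list was −0.57 on VN and −0.32 on VNP2. Both medians rest in part on VGLL2 (log2 fold changes −0.71 and −0.16), which was called in neither comparison. Its mean normalized counts were only 24.1 on Matrigel, 14.7 on VN and 21.6 on VNP2. TEAD4 was at 19.7 and 21.5 TPM on Matrigel, 11.8 to 13.6 TPM on VN and 11.9 to 12.98 TPM on VNP2, with log2 fold changes of −0.77 and −0.81 in normalized counts. TEAD3 had log2 fold changes of −0.43 and −0.49, and VGLL3 of −1.08 and −0.94. TEAD2, the most abundant of the TEAD genes at 99.5 to 123 TPM, had log2 fold changes of 0.18 and 0.19. TEAD1, a member described above, was called in neither.

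Of 16 further genes known to be induced by YAP in other cells, 10 were lower and none was higher on VN (median log2 fold change −0.48), and 10 were lower and 2 were higher on VNP2 (median −0.43). IGFBP3, which binds insulin-like growth factors, was at −1.59 on VN and at −1.69 on VNP2 in log2 fold change. The values were −1.39 and −1.27 for TGFB2, a ligand of the TGF-beta family, −1.19 and −1.39 for AXL, a receptor tyrosine kinase, and −0.97 and −0.84 for MYOF, a membrane protein. CCDC80, a secreted matrix protein, differed from these genes, and its abundance was 37.0 and 31.0 TPM on Matrigel, 32.9, 35.7 and 33.8 TPM on VN, against 54.8, 50.7 and 56.8 TPM on VNP2. It was higher on VNP2 than on Matrigel (log2 fold change 0.60, edgeR adjusted p = 0.000301) and than on VN (0.68, edgeR adjusted p = 0.000277), and was the only gene of this list that edgeR called between these coatings, where limma on the authors' table called 2. The transcription factor gene FOXF2 was higher on VNP2 than on Matrigel (0.46).

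Genes induced by serum response factor (SRF) and its actin-regulated cofactors of the MRTF family moved beside the YAP targets. Of 14, 13 were lower on VN and the same number on VNP2, with medians of −0.73 and −0.76. TAGLN had log2 fold changes of −2.11 and −2.29, CNN1 of −1.84 and −1.84, MYL9 of −1.41 and −1.65, and TPM1 of −1.12 and −1.45, all 4 being genes of the contractile actin cytoskeleton. FHL1 was the gene not called, but only 14.3% of its counts in the authors' table were recovered here. In that table FHL1 had normalized counts of 9123 and 9304 on Matrigel, 7162 to 7515 on VN and 8149.6 to 8292 on VNP2, without overlap. It was lower by that table on VN (log2 fold change −0.33, limma adjusted p = 9.34e-05) and on VNP2 (−0.17, limma adjusted p = 0.0068), so that all 14 genes of the list were lower on both coatings there. Between VNP2 and VN, edgeR called TPM1 alone (log2 difference −0.33), and limma on the authors' table called 1 gene higher and 2 lower.

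**Figure D4:**
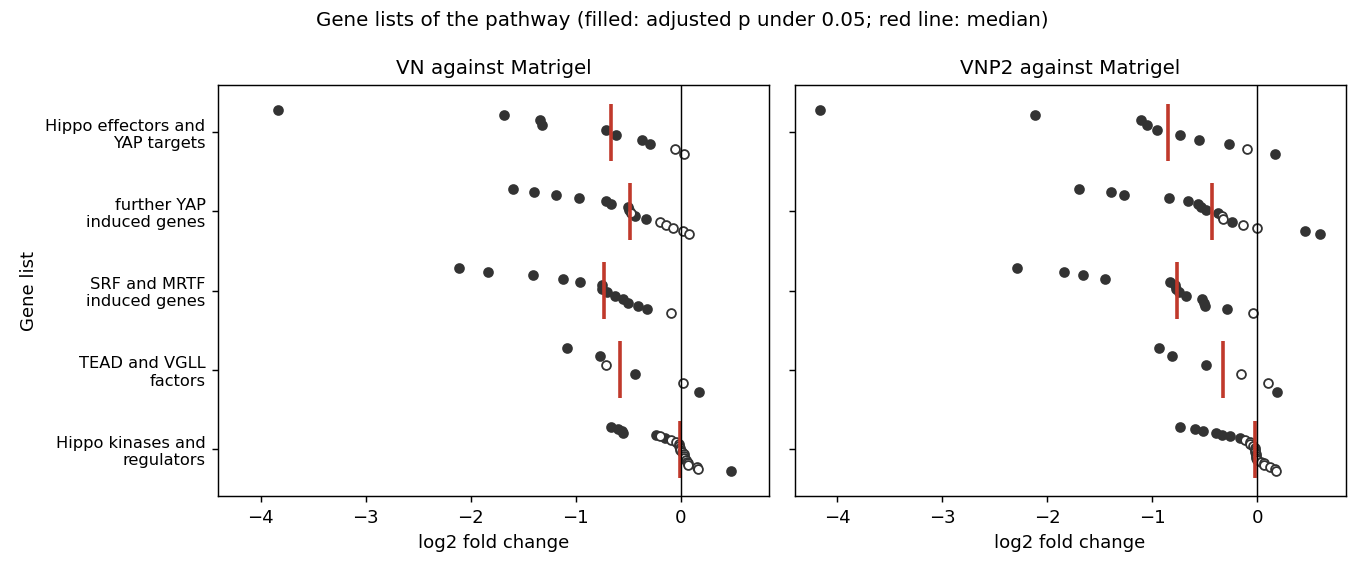
Log2 fold change of every tested gene of the member list and the 4 pathway lists, for VN (left) and VNP2 (right) against Matrigel, with 1 point per gene, filled where called, and the list medians as red lines. The medians of the SRF and MRTF list are −0.73 on VN and −0.76 on VNP2, and that of the Hippo kinases and regulators is −0.0067 and −0.023.

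Markers of other cell types differed between coatings too. The summed abundance of 8 neuron markers was 755 to 788 TPM on Matrigel, 850.1 to 909 TPM on VN and 921 to 945 TPM on VNP2, with 4 and 6 of the 8 genes called higher against Matrigel. TUBB3 alone held means of 548, 551 and 569 TPM of these sums and was called in neither comparison (log2 fold changes −0.07 and −0.01). Its mean normalized counts were 22603 on Matrigel and 21549 on VN, so its direction on VN depended on the scale. The summed abundance of 10 mesenchymal markers, which share ACTA2 with the SRF list, was 545 to 553 TPM on Matrigel, 599 to 636 TPM on VN and 523 to 557 TPM on VNP2. Called mesenchymal markers numbered 3 in each direction on VN, whereas on VNP2 there were 5 rises and 3 falls. Neural progenitor markers summed to 3591 to 3668 TPM, 3072 to 3129 TPM and 3356 to 3405 TPM. VIM alone held means of 2530, 1946 and 2251 TPM of these sums. On VN, VIM and NES were called lower, and HES5 and MSI1 higher. PAX6 had 36 estimated counts over all libraries and was not tested. Pluripotency markers summed to 91.5 to 96.4 TPM, 80.4 to 82.4 TPM and 75.9 to 79.8 TPM, and neural crest markers to 50.9 to 51.3 TPM, 51.4 to 56.4 TPM and 62.8 to 65.1 TPM. Of the pluripotency sums, LIN28A held means of 56.3, 40.5 and 37.1 TPM and DPPA4 of 31.0, 33.3 and 36.9 TPM. The means of POU5F1 were only 4.96, 6.45 and 2.16 TPM. Called higher and lower on VN were 2 and 2 of 7 tested progenitor markers, 0 and 1 of 6 pluripotency markers and 0 and 0 of 8 tested neural crest markers, and on VNP2 the counts were 2 and 2, 1 and 2, and 2 and 1. The part of these differences in the members' changes was not tested.

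The genes most like the 3 members of the widest range were read as a description over the 8 libraries, among the 12988 tested genes whose normalized counts averaged 100 or more. Likeness was the root mean square difference of log2 values after centring, which has no replicate test. Nearest to ANKRD1 were EDN1, the gene of endothelin 1 (0.270), ADGRG6, an adhesion G protein-coupled receptor (0.280), and IL11, a cytokine (0.435). EDN1 had mean normalized counts of 573 on Matrigel, 45.6 on VN and 26.1 on VNP2. For IL11 the means were 700, 99.7 and 68.7 in the same order. Both genes were thus under 100 in the VN and VNP2 groups, so they passed the cut-off only through their Matrigel counts. ADGRG6 was under 100 in the VNP2 group alone (76.1). Nearest to CCN1 were HBEGF, a growth factor of the EGF family (0.103), LIX1 (0.134) and BOK (0.138), and nearest to CRIM1 was CCN2, a member itself (0.0769), then CARD10 (0.0915) and EHD4 (0.0972).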

How the data were processed

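Transcript abundances of 8 libraries (2 Matrigel, 3 VN, 3 VNP2) were used. The authors trimmed reads with Trim Galore and ran Salmon on GENCODE release 32. The deposited estimated counts are Salmon's, neither whole nor normalized. The deposited TPM values and effective lengths are Salmon's too, and the effective lengths weighted the gene lengths used as offsets. Normalized counts were deposited as well, a signal per gene made with tximport and DESeq2 (version 1.27.12 per the labels), used here for checks and 1 alternative. Between 98.8% and 98.9% of the counts were in transcripts matched to GENCODE release 29, through 205225 of 226608 transcripts, so some genes lose counts.

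Counts were summed per gene, rounded, filtered (filterByExpr, minimum count 10, minimum total 15) and fitted with length offsets and TMM normalization in edgeR 4.0.16 (R 4.3.3), with all 8 libraries in 1 quasi-likelihood fit without a replicate block. Tests were two-sided, with Benjamini-Hochberg adjustment over 18201 genes and calls at an adjusted p under 0.05. At the depths given in the text the common dispersion was 0.0037. Ratios were compared with exact permutation tests (scipy 1.17.1). Scripts were tested on simulated data.

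Members and gene lists were chosen with earlier results of these data known. Named genes are all members, up to 4 called genes per pathway list and comparison by the size of the change, and the 3 genes most like each of the 3 members of the widest range. SLMAP, FHL1, FOXF2, FEZ2, VGLL2, SOX10, GPR17, PTPRZ1, TUBB3, VIM, NES, HES5, MSI1, PAX6, LIN28A, DPPA4, POU5F1 and ACTA2 were named after their values were seen where that rule did not name them. Alternatives were DESeq2 1.42.0, RLE normalization, no filter, at least 50 counts in every library, no length offsets, only the libraries of the pair, a replicate block, limma 3.58.1 on log2 of the authors' normalized counts (pseudocount 1), and each library left out. Promoters are from RefSeq.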

Additional observations from a re-analysis of the deposited data

How the results depend on the processing

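Of 480 alternative values of the members' log2 fold changes, 453 kept direction and call, 21 lost the call, 4 gained it and 2 reversed. The reversed values were −0.052 for WWTR1 between VNP2 and VN without length offsets and −0.013 for YAP1 on VN without Matrigel replicate 3 (−0.013 to 0.073 over the fits with a library left out). Neither difference was called and the cause was not tested. All calls against Matrigel held under every alternative except YAP1 on VNP2. Of 30 shares of a leading transcript, 18 moved by more than their spread when taken from estimated counts in place of TPM, by up to 14.6 percentage points. With each library left out in turn, members called numbered 8 to 8 on VN, 8 to 9 on VNP2 and 3 to 6 between VNP2 and VN. All genes called numbered 1184 to 3911 for VN against Matrigel, 1611 to 3653 for VNP2 against Matrigel (the lowest in both with a single Matrigel library, assumed to vary like the other groups) and 544 to 1979 between VNP2 and VN, against 2770, 3017 and 942 with all libraries. The highest of each was without VN replicate 1, and the lowest of the last without VNP2 replicate 1.

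Libraries of the same number correlated at −0.112 to 0.140 in their deviations from the group means, and libraries of different numbers at −0.170 to 0.177. Centring on means of 2 or 3 libraries ties these values to each other. They therefore cannot show whether the numbers pair the libraries. With a replicate block, members called were 8, 9 and 6, the same counts as without it, and all genes called were 3405, 3155 and 1167. The comparisons against Matrigel rest on 2 Matrigel libraries, and all comparisons rest on 1 cell line. Releases 29 and 32 of GENCODE differ, and the members' normalized counts here averaged 99.9% or more of those in the authors' table.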
